A study of Homo sapiens with 17 samples.

Results

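The 9 genes described here encode ligands of the TNF family, namely TNF, LTA, LTB, TNFSF10 (which encodes TRAIL), TNFSF9, TNFSF12, TNFSF13, TNFSF15 and FASLG. They were taken by symbol from the 58870 entries of the deposited gene table, and all 9 were found there as 1 entry each. RNA came from MDA-MB-231, an established human triple-negative breast cancer cell line that the labels describe as mesenchymal and basal B. Every library, the 0 h libraries included, is labelled as treated with TRAIL, at 45 nM, which the protocols call a suboptimal dose. RNA was taken after 0, 1, 3, 6, 12 and 24 h, with 3 libraries at each time except 1 h, for which 2 were analysed. No library without TRAIL was analysed for the later times, so time with TRAIL and time in culture cannot be told apart. The labels do not say whether replicates came from separate cultures, so the p-values measure the spread between these libraries, which may be technical.

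TNF family ligands are mostly made as trimeric proteins of the cell surface, and many are cut off by proteases to act on other cells. They bind receptors of the TNF receptor family. Some of these, such as the TRAIL receptors DR4 and DR5 and the receptor of FAS ligand, carry a death domain that can start apoptosis. Others mainly activate NF-κB. Several of the ligand genes, TNF and LTB among them, are themselves known targets of NF-κB in immune cells, and TNFSF10 is known to be induced by interferon. The counts are of RNA from the cells and measure neither the added TRAIL nor any secreted protein.

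Total counts per library ran from 13731520 to 19234924. The basal B mesenchymal markers were present in all 17 libraries, from 26.6 CPM for SNAI2 to 3724 CPM for VIM, and, of the 6 luminal markers, ESR1, PGR and CDH1 had at most 2 counts, 1 count and 16 counts in any library, while ERBB2 (56.4 to 70.9 CPM), EPCAM (13.1 to 19.3 CPM) and GATA3 (6.97 to 12.1 CPM) were present in all. CPM, the unit of level used here, is the count relative to the library total after TMM scaling, in the usual per-million form. Of the 9 leukocyte markers, CD3E was at 0 in all 17 libraries and PTPRC, the pan-leukocyte marker, had at most 5 counts. CD14 was present in all 17, with 11 to 32 counts (0.730 to 1.98 CPM). The 9 summed to between 77.1 and 87.2 CPM at 0 h, between 59.4 and 65.9 at 3 h, and between 94.5 and 100.03 at 24 h, of which CD68 alone held 57.6 to 98.3 CPM over all libraries. CD68 is also expressed outside leukocytes, and the part of this sum in the results was not tested. Replicates 2 and 3 at 6 h, and replicates 2 and 3 at 24 h, were closer to each other than any other replicate pair (chi-square per gene of 1.52 and 1.69, against 4.09 or more for the other 14 pairs), so results are also given with each of these pairs averaged where that changes a call.

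The ligands differed widely in level. Per kilobase of merged exons and at 0 h (n = 3), TNFSF10 stood at 19.1 ± 2.98 CPM per kb, TNFSF12 at 9.70 ± 0.263, TNFSF9 at 3.78 ± 0.137 and TNFSF13 at 1.94 ± 0.490. LTB (0.311 ± 0.142) and TNFSF15 (0.295 ± 0.0580) did not differ beyond their spread. LTA (0.0836 ± 0.0746) lay below them, FASLG had 1 count in all 0 h libraries together, and TNF had 0. The spliced form used in these cells is not known, so a level per kilobase depends on the annotated exons. By 24 h TNFSF10 was at 30.8 ± 3.63 CPM per kb and remained first, TNFSF13 (2.66 ± 0.276) stood above TNFSF9 (1.92 ± 0.149), and TNFSF15 (0.862 ± 0.00606) stood above LTB (0.561 ± 0.153).

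A gene was tested when enough libraries reached about 10 counts, and called when its p-value, adjusted over all 15365 genes tested, was below 0.05. This filter passed 7 of the 9 ligands. LTA and FASLG did not pass. LTB and TNF passed through the times at which they were high: LTB had 10 or more counts in 12 of 17 libraries, only 1 of them at 0 h, and TNF, with at most 9 counts in any library, passed through its 3 h libraries, since the filter scales counts to library size. The calls of LTB and TNF at those times thus rest on the same counts that admitted them to the test. Over all times together, all 7 tested ligands changed (64.2% of all genes did). Against 0 h, 0 ligands were called at 1 h (0.312% of all genes; TNF alone had an unadjusted p below 0.05, and DESeq2 and limma-voom also called 0), 2 after 3 h (17.7%), 5 after 6 h (30.1%), 4 after 12 h (12.4%) and 3 after 24 h (35.1%). The median log2 fold change was taken over the ligands with a defined fold change, with TNF at its ratio to the 0 h limit where it has one. It was 0.058 after 1 h, 0.031 after 3 h, 0.0092 after 6 h, 0.11 after 12 h and 0.57 after 24 h. Over all genes it lay between -0.022 and -0.0017. The ligands thus did not move together: TNF and LTB were high from 3 h to 12 h, TNFSF15 rose from 6 h on, TNFSF10 rose at 24 h, TNFSF12 was low at 6 h and TNFSF9 fell from 6 h on.

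**Figure D1:**
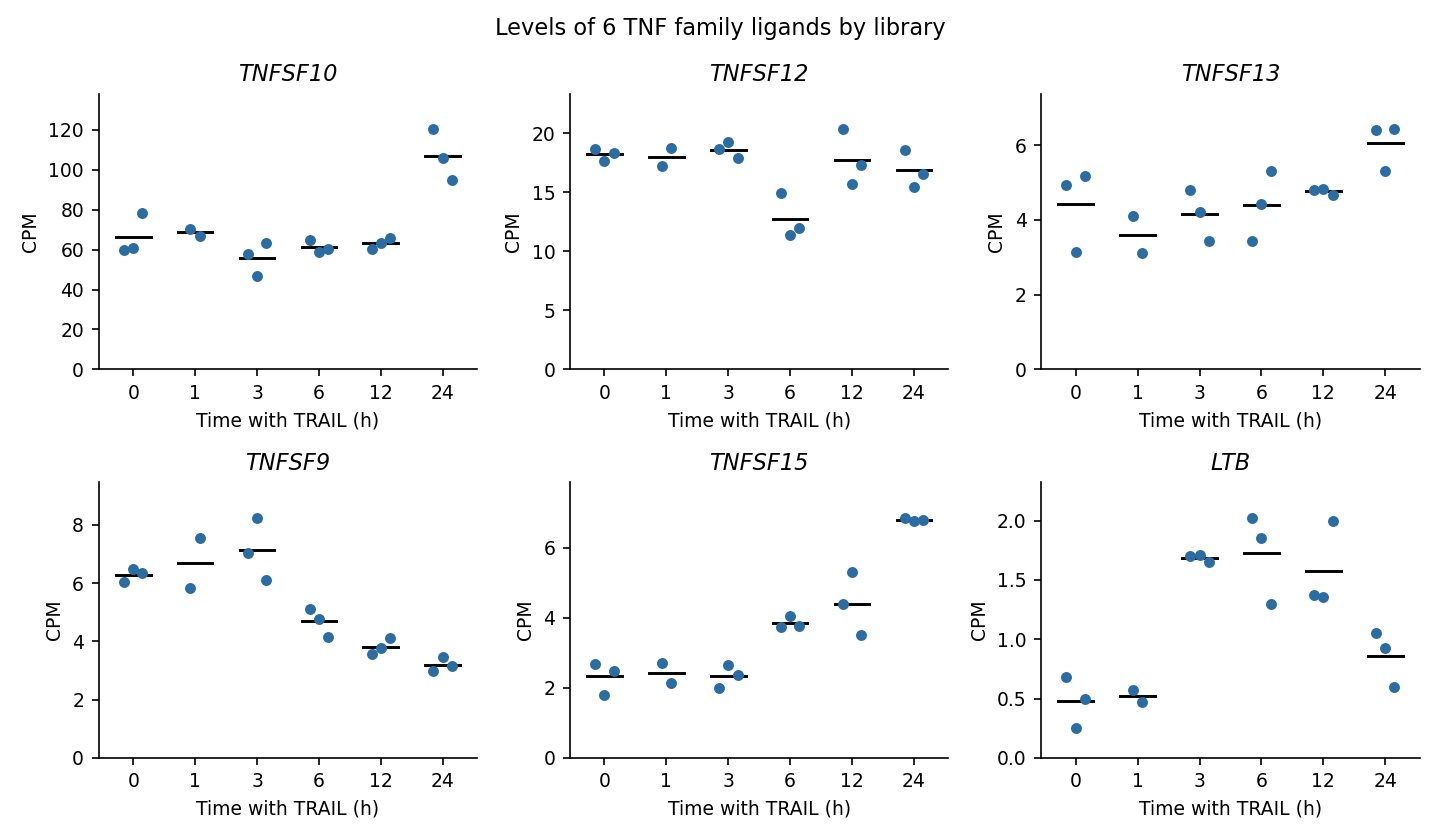
Level in CPM (y axis, from 0) of 6 ligands against time with TRAIL (x axis, not to scale); each point is 1 library and the black bar is the mean of 2 or 3 libraries. TNFSF10 stands at 95.1 to 120 CPM at 24 h, above all earlier libraries, and TNFSF9 falls below its 0 h values from 6 h on.

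TNFSF10 encodes TRAIL, the ligand that was added to the cells, which binds the death receptors DR4 and DR5 and the decoy receptors DcR1 and DcR2. Its entry is ENSG00000121858, on chromosome 3 from 172505508 to 172523507 on the minus strand (GENCODE 29, GRCh38). The TNFSF10 level was 59.9, 60.7 and 78.2 CPM at 0 h, and 70.6 and 66.8 CPM at 1 h. It was 57.6, 46.6 and 63.5 CPM at 3 h, 65.0, 58.8 and 60.4 CPM at 6 h, and 60.1, 63.4 and 65.9 CPM at 12 h. At 24 h it was 120, 106 and 95.1 CPM. The TNFSF10 values of 1, 3, 6 and 12 h each overlapped the 0 h range, and all 3 libraries at 24 h lay above the other 14. Both 1 h libraries lay above all those of 3, 6 and 12 h. The log2 difference of 3 h from 1 h was -0.30 (SE 0.125, adjusted p 0.193). That difference was called only with the filter on low counts left out (-0.31, adjusted p 0.0137).

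The mean rose from 66.3 ± 10.3 CPM (SD, n = 3) at 0 h to 107 ± 12.6 CPM at 24 h (n = 3), which is 1.61-fold (log2 fold change 0.69, SE 0.109, adjusted p 1.9e-04). Most of this came after 12 h: TNFSF10 was higher at 24 h than at 12 h by 0.76 on the log2 scale (SE 0.109, adjusted p 4.5e-04; 2 ligands and 12% of all genes were called between these times). Both changes were called under every alternative tried. At 3 h TNFSF10 was at 55.9 ± 8.59 CPM and the log2 difference from 0 h was -0.24 (SE 0.113, adjusted p 0.145). It was called only with the filter on low counts left out (-0.27, adjusted p 0.011). In bulk RNA, a change in RNA per cell and a change in the share of cells that hold it cannot be told apart. Between 600 and 2053 counts per library lie behind these values, all of them whole.

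The bases upstream of the RefSeq start of TNFSF10 (GRCh38.p14, minus strand, chr3:172523508-172523680) are shown because they hold the consensus searched for the interferon-stimulated response element (GAAA, any 2 bases, GAAA), in capitals and in the opposite orientation to the gene.
TNFSF10: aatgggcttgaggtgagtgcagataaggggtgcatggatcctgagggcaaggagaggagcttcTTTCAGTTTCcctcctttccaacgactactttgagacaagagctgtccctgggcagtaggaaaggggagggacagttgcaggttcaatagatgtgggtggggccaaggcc
The match lies 187 to 178 bases before the start. In windows of 250 bases before the start, taken from the RefSeq table for 8 of the 9 ligands (11 windows), this motif was present on either strand in 3 windows, those of TNFSF10, TNFSF9 and FASLG. Of all 35116 windows of this length, 3.02% held it. A match of letters is a description of the sequence and no evidence of binding.

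The interferon-response genes of a list of 10 were all tested. Relative to 0 h, 1 of them was higher at 3 h and 3 were lower (9.04% and 8.71% of all genes), and their median log2 fold change was -0.24. At 6 h, 1 was higher and 7 were lower (16.9% and 13.2% of all genes), with a median of -0.41. Only 4 of the 10 were called at 6 h without the 6 h replicate 3 or with 6 h replicates 2 and 3 averaged, and 5 without the 6 h replicate 2. At 12 h, 2 were higher and 0 lower (5.96% and 6.48%); leaving out 0 h replicate 1 or 2, or 12 h replicate 2 or 3, left 1. At 24 h, 8 were higher and 0 lower (18% and 17.1%), with a median of 0.34; leaving out 0 h replicate 2 or 24 h replicate 1 left 5. At 1 h, 0 were called (1 at an unadjusted p below 0.05, 0 with DESeq2 or limma-voom). IFIT1, an inhibitor of the translation of viral RNA, went from 47.5 ± 3.18 CPM at 0 h down to 28.4 ± 1.01 CPM by 6 h (-0.74, adjusted p 6.3e-07) and up to 79.9 ± 4.92 CPM by 24 h (0.75, adjusted p 2.8e-07; n = 3 at each time). IFIT2 changed by -0.45 at 3 h (adjusted p 1.8e-04) and 0.83 at 24 h (4.5e-08). TNFSF10 and IFIT1 thus both had their highest mean at 24 h, while at 6 h, where IFIT1 was lowest, TNFSF10 stood at 61.4 ± 3.21 CPM, within its 0 h range; whether the 2 genes differ in this was not tested.

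TNF and LTB lie next to each other and to LTA within the major histocompatibility complex on chromosome 6. LTA extends from 31572054 to 31574324 on the plus strand, TNF from 31575567 to 31578336 on the plus strand, and LTB from 31580525 to 31582522 on the minus strand (GENCODE 29, GRCh38), with gaps of 1242 and 2188 bases between them. TNF encodes the inflammatory cytokine that gave the family its name. LTA encodes lymphotoxin alpha, which is secreted as a trimer or joins lymphotoxin beta, the product of LTB, in a membrane-bound complex that binds the lymphotoxin beta receptor. All 3 genes had few counts, all whole, and are given as counts first.

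TNF (ENSG00000232810) had 0 counts in each of the 3 libraries at 0 h, and 2 counts and 1 count at 1 h. It had 9, 9 and 8 counts at 3 h, and 8, 5 and 5 counts at 6 h. The 12 h libraries had 4, 3 and 4 counts, and those of 24 h had 2, 0 and 0. Every library at 3, 6 and 12 h was above every 0 h library, while 2 of the 3 libraries at 24 h were back at 0. Summed over each time, the 26 counts at 3 h are 0.645 CPM, with an exact 95% Poisson interval of 0.421 to 0.945 that covers counting error only. The 0 counts at 0 h allow up to 0.0622 CPM (3 counts over the group). The pooled TNF level was 10.4-fold this 0 h limit at 3 h, 5.85-fold at 6 h and 3.36-fold at 12 h. These ratios leave out the counting error of the later counts. The Poisson interval was 0.216 to 0.576 CPM at 6 h (18 counts) and 0.105 to 0.375 CPM at 12 h (11 counts). At 1 h and at 24 h TNF did not exceed the 3 counts that the limit rests on. The test called TNF at 3 h (adjusted p 3.3e-04), 6 h (0.00138) and 12 h (0.0157), but not at 1 h (0.877) or 24 h (0.181). Because TNF entered the test through its 3 h counts, the 3 h call is no separate support for the rise at that time. Leaving out 0 h replicate 1 or 2 ended the 12 h call (adjusted p 0.0507 and 0.0506), and once 3 h replicate 1 or 2 was left out TNF no longer passed the filter on low counts.

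LTB (ENSG00000227507) had 11, 4 and 8 counts at 0 h and 9 and 7 counts at 1 h. It had 23, 22 and 23 counts at 3 h, and 32, 28 and 24 counts at 6 h. The 12 h libraries had 20, 27 and 36 counts, and those of 24 h had 18, 15 and 9. The LTB libraries at 3, 6 and 12 h were all above those at 0 and 1 h in CPM, and those at 24 h overlapped the 0 h range. The mean LTB level was 0.477 ± 0.218 CPM at 0 h. It reached 1.69 ± 0.0335 CPM by 3 h, 1.72 ± 0.381 CPM by 6 h and 1.57 ± 0.367 CPM by 12 h, and was 0.861 ± 0.234 CPM at the last time (n = 3 throughout). Against 0 h, LTB rose by 1.81 at 3 h on the log2 scale (SE 0.340, adjusted p 0.00117), by 1.83 at 6 h (5.1e-04) and by 1.71 at 12 h (0.00248). At 24 h the log2 difference was 0.85 (SE 0.368, adjusted p 0.074), which was a call in 4 of 20 alternatives. Leaving out 0 h replicate 1 gave 1.20 (adjusted p 0.0459) and leaving out 0 h replicate 2 gave 0.55 (0.269). The 3 h, 6 h and 12 h means of LTB did not differ beyond their spread.

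**Figure D2:**
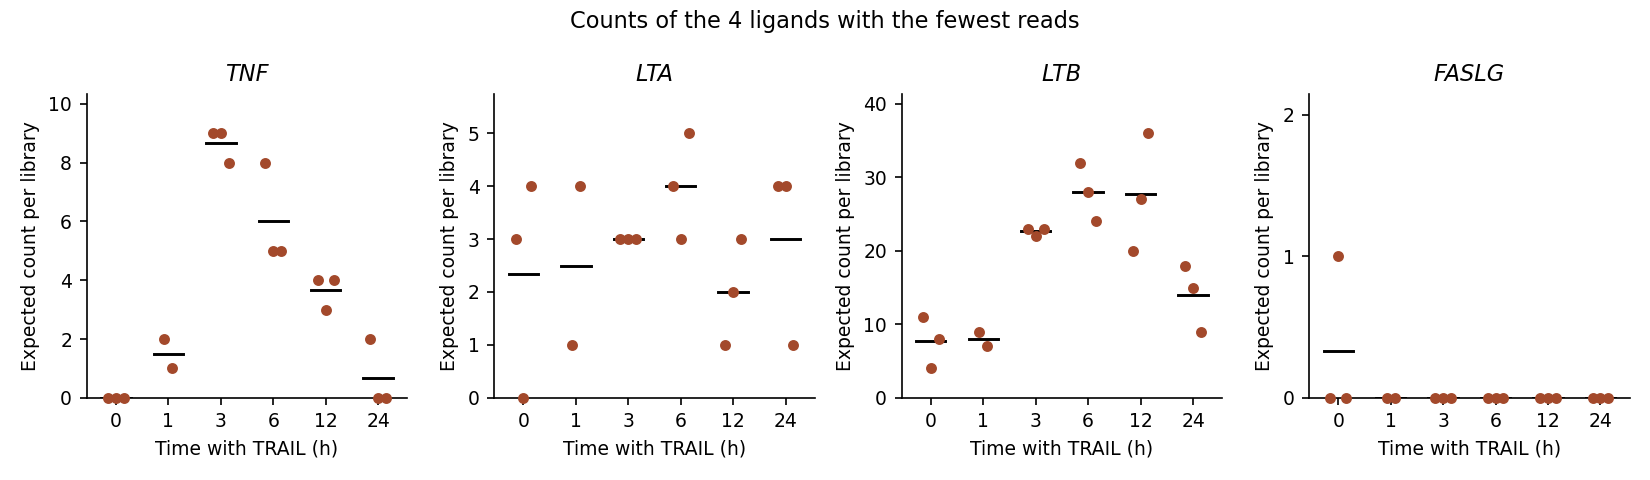
Expected count per library (y axis, from 0, a different range in each panel) of TNF, LTA, LTB and FASLG against time with TRAIL (x axis, not to scale); points are libraries and bars are means. TNF is at 0 in all 3 libraries at 0 h and at 8 or 9 counts at 3 h, LTB rises from 4 to 11 counts to 22 or 23, LTA stays between 0 and 5, and FASLG has 1 count in 1 library.

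The rise of TNF and LTB fell between 1 h and 3 h. Between these times, TNF was higher by 2.63 (SE 0.732, adjusted p 0.0344) and LTB by 1.69 (SE 0.385, adjusted p 0.0117). They were the 2 ligands called between these times (5.73% of all genes). Both passed the filter through times at which they were high, 3 h among them, so these calls are no separate support for the rise. There are only 2 libraries at 1 h, and leaving out either one ended both calls, the remaining library being assumed to vary like the other groups. With replicate 1 left out, the values were 3.13 for TNF (adjusted p 0.202) and 1.83 for LTB (0.0923), and with replicate 2 left out, 2.29 (0.194) and 1.56 (0.0941). The TNF call between these times was also lost with the filter left out (2.62, adjusted p 0.0722). Once 3 h replicate 1 or 2 was left out TNF was not tested and LTB alone was called. From 12 h to 24 h, TNF and LTB differed by -2.15 (adjusted p 0.102) and -0.86 (0.0644). Leaving out 24 h replicate 1 gave calls for both (adjusted p 0.0202 for TNF, which is then at 0 in both remaining 24 h libraries and has no fold, and -1.03, 0.0461 for LTB), and limma-voom called TNF (-2.11, adjusted p 0.032).

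LTA (ENSG00000226979) had 3, 0 and 4 counts at 0 h, 1 count and 4 counts at 1 h, and 3 in each library of 3 h. It had 4, 3 and 5 counts in the 6 h libraries, 1, 2 and 3 in those of 12 h, and 4, 4 and 1 in those of 24 h. Every later group overlapped the 0 h range. In CPM, the libraries of 3 h (0.215 to 0.233) and 6 h (0.199 to 0.270) lay above those of 12 h (0.0686 to 0.167), which was not tested. The pooled LTA level was 0.145 CPM at 0 h (exact 95% Poisson interval 0.0584 to 0.299) and 0.223 CPM at 3 h (0.102 to 0.424). No change of LTA from 0 h was thus detectable at this depth. FASLG (ENSG00000117560, chromosome 1, 172659018 to 172666874), which encodes the ligand of the death receptor FAS, had 1 count in the 0 h replicate 2 and 0 in the other 16 libraries, so that no statement on its change can be made.

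Stretches upstream of the RefSeq starts of TNF and LTB are shown because these neighbours moved in the same direction at 3, 6 and 12 h. The TNF stretch (GRCh38.p14, plus strand, chr6:31575315-31575564) held no match to the consensus called the κB motif, the 10-base site of NF-κB, so nothing is in capitals.
TNF: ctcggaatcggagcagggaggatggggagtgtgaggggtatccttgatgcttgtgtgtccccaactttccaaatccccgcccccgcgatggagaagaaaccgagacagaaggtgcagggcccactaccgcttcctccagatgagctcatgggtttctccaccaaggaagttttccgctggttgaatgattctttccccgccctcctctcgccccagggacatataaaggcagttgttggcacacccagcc
That says only that these letters are not in this window. For LTB (minus strand, chr6:31582492-31582521), 30 bases around a match are shown, with the match in capitals.
LTB: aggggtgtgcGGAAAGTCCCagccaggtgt
The LTB match lies 86 to 77 bases before the RefSeq start. It lies inside LTB as GENCODE 29 places the gene (31580525 to 31582522). The 153 bases before both the RefSeq and the GENCODE 29 start held no match. On either strand, the κB motif was found in windows of LTB, LTA and TNFSF13 (4 of the 11 windows), and in 9.96% of all windows of this length. The windows of LTB (31582426 to 31582675 and 31582425 to 31582674) nearly coincide and hold the same match. That site is thus counted more than once, and the windows are not independent. Of the 3 genes with a match, LTB was called from 3 h to 12 h, TNFSF13 was not called against 0 h and LTA was too low to test.

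Beside these ligands stands the NF-κB list, 8 subunit and feedback genes that were all tested. At 1 h, 2 were higher (NFKBIA, an inhibitor of NF-κB, and TNFAIP3, which encodes the ubiquitin-editing enzyme A20), against 0.26% of all genes higher and 0.0521% lower; leaving out 0 h replicate 2 or 3 or either 1 h library left 1. By 3 h all 8 were higher (median 1.24 on the log2 scale; 9.04% of all genes were higher), by 6 h 7 (median 0.99; 16.9%), by 12 h 7 (median 0.40; 5.96%) and by 24 h again all 8 (median 0.64; 18%), and 0 were lower at any time. BIRC3, which encodes the inhibitor of apoptosis cIAP2, had a mean of 42.5 ± 3.50 CPM at 0 h, and its 3 h mean of 198 ± 18.9 CPM was higher by 2.22 on the log2 scale (adjusted p 1.5e-11). It was 187 ± 22.8 CPM by 6 h, 106 ± 6.07 CPM by 12 h and 175 ± 14.3 CPM by 24 h (2.04, adjusted p 3.0e-11; n = 3 throughout). BIRC3 was thus lower at 12 h and rose again by 24 h (0.73 against 12 h, adjusted p 8.7e-05). NFKBIA had a mean of 116 ± 3.33 CPM at 3 h and 76.4 ± 3.95 CPM by 24 h, and TNFAIP3 of 25.9 ± 0.898 CPM and 13.9 ± 0.384 CPM, while TNF had 8 or 9 counts per library at 3 h and 0 to 2 by 24 h.

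TNFSF15 encodes TL1A, which binds the death-domain receptor DR3 and costimulates lymphocytes. Its entry is ENSG00000181634 (chromosome 9, 114784635 to 114806126, minus strand). The TNFSF15 level was 2.68, 1.81 and 2.49 CPM at 0 h, 2.72 and 2.13 CPM at 1 h, and 2.00, 2.64 and 2.37 CPM at 3 h. It was 3.73, 4.05 and 3.78 CPM at 6 h, 4.39, 5.32 and 3.50 CPM at 12 h, and 6.85, 6.75 and 6.81 CPM at 24 h. Values of 0, 1 and 3 h overlapped, every library from 6 h on was above all of them, and the 24 h libraries were above all others.

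Against 0 h, TNFSF15 rose by 0.73 on the log2 scale at 6 h (SE 0.183, adjusted p 0.00617), by 0.92 at 12 h (SE 0.179, 0.00247) and by 1.55 at 24 h (SE 0.172, 4.2e-06), the last being 2.92-fold. These 3 calls were made under every alternative tried. Between 3 h and 6 h it rose by 0.72 (adjusted p 0.00454), when 3 ligands and 43.2% of all genes were called. Between 12 h and 24 h it rose by 0.62 (SE 0.156, adjusted p 0.0151), but this was not called with 24 h replicates 2 and 3 averaged (0.63, adjusted p 0.065). Leaving out 12 h replicate 1 (0.62, 0.0546) or 3 (0.48, 0.0687), or 24 h replicate 2 (0.63, 0.0542) or 3 (0.62, 0.0532), ended the call as well. Counts of TNFSF15 ran from 27 to 117 per library.

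TNFSF9 encodes 4-1BB ligand, a costimulator of T cells through the receptor 4-1BB. Its entry is ENSG00000125657 (chromosome 19, 6530999 to 6535928, plus strand). The TNFSF9 level was 6.04, 6.48 and 6.35 CPM at 0 h, 5.82 and 7.53 CPM at 1 h, and 7.05, 8.23 and 6.09 CPM at 3 h. It was 5.12, 4.78 and 4.16 CPM at 6 h, 3.57, 3.76 and 4.11 CPM at 12 h, and 2.99, 3.47 and 3.14 CPM at 24 h. From 6 h on, every library lay below all 8 libraries of the first 3 times, and the groups of 6, 12 and 24 h did not overlap with one another.

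TNFSF9 fell by 0.43 at 6 h on the log2 scale (SE 0.139, adjusted p 0.0247), by 0.72 at 12 h (SE 0.141, 0.00283) and by 0.97 at 24 h (SE 0.147, 8.6e-05), so that 0.509 of the 0 h level remained at 24 h. The calls at 12 h and 24 h were made under every alternative. The call at 6 h was made in 11 of 20 alternatives. Those that ended it included the removal of each library's trend with transcript length and GC content (-0.26, adjusted p 0.129), DESeq2 (-0.43, 0.0621) and the averaging of 6 h replicates 2 and 3 (-0.42, 0.079). Leaving out 0 h replicate 2 (-0.41, 0.0656) or 3 (-0.42, 0.0551), or 6 h replicate 2 (-0.44, 0.0584) or 3 (-0.34, 0.129), ended it too. Between 3 h and 6 h, TNFSF9 fell by 0.61 (adjusted p 0.00178). That value was -0.37 after removal of the length and GC trends (adjusted p 0.0253).

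**Figure D3:**
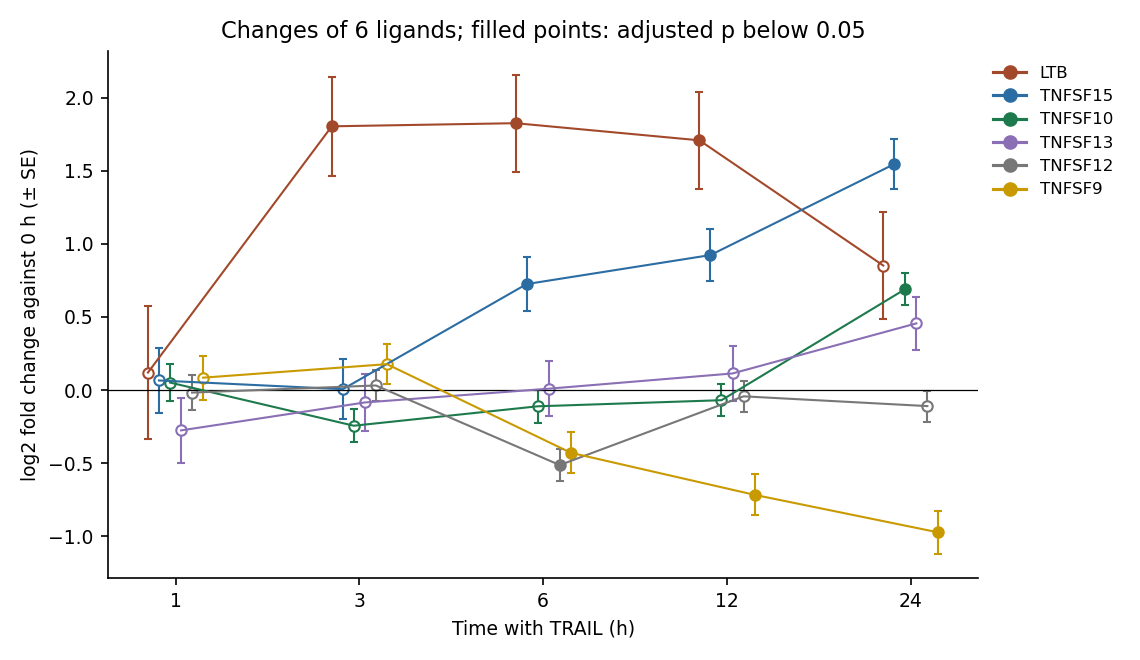
Log2 fold change against 0 h (y axis) with its standard error (bars) for 6 ligands at 1, 3, 6, 12 and 24 h (x axis, not to scale); filled points have an adjusted p below 0.05. All points share the 3 libraries at 0 h. LTB is at 1.81, 1.83 and 1.71 from 3 h to 12 h, TNFSF15 climbs to 1.55 and TNFSF9 falls to -0.97 at 24 h.

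TNFSF12 and TNFSF13 are neighbours on chromosome 17. TNFSF12 (ENSG00000239697, 7548891 to 7557890, plus strand) encodes TWEAK, which binds the receptor Fn14. TNFSF13 (ENSG00000161955, 7558292 to 7561608, plus strand) encodes APRIL, a survival factor of plasma cells. Another entry, the readthrough gene TNFSF12-TNFSF13 (7549099 to 7561601), overlaps both, by 8792 and 3310 bases. TNFSF12 had fractional counts in 16 of 17 libraries and TNFSF13 in all 17, so fragments were divided between entries and the values of both genes are uncertain.

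The TNFSF12 level was 18.6, 17.7 and 18.4 CPM at 0 h, 17.2 and 18.8 CPM at 1 h, and 18.7, 19.3 and 17.9 CPM at 3 h. It was 15.0, 11.4 and 11.9 CPM at 6 h, 20.3, 15.7 and 17.3 CPM at 12 h, and 18.6, 15.4 and 16.5 CPM at 24 h. The 3 libraries at 6 h were below the other 14, which overlapped one another. TNFSF12 was lower by 0.51 at 6 h than at 0 h on the log2 scale (log2 fold change -0.51, SE 0.109, adjusted p 0.0019) and lower than at 3 h (-0.54, 6.9e-04). It was higher at 12 h than at 6 h (0.47, SE 0.109, adjusted p 0.00473), the only ligand called between these times (20.6% of all genes). With the 3 entries of the locus summed, an alternative added after seeing the data, the 6 h difference from 0 h was -0.38 (SE 0.0956, adjusted p 0.00608). The summed level was 24.7 ± 0.399 CPM at 0 h, 18.97 ± 2.24 CPM by 6 h and 25.3 ± 3.10 CPM by 12 h (n = 3 throughout). After removal of the length and GC trends, the TNFSF12 difference at 6 h was -0.32 from 0 h (adjusted p 0.00769) and -0.28 from 3 h (0.0142).

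The TNFSF13 level was 4.94, 3.13 and 5.17 CPM at 0 h, 4.10 and 3.10 CPM at 1 h, and 4.80, 4.22 and 3.42 CPM at 3 h. It was 3.44, 4.43 and 5.30 CPM at 6 h, 4.81, 4.82 and 4.67 CPM at 12 h, and 6.40, 5.32 and 6.42 CPM at 24 h. The 3 libraries at 24 h were above the other 14. The log2 difference from 0 h at 24 h was 0.46 (SE 0.182), just outside the threshold (adjusted p 0.0567). It was called in 7 of 20 alternatives, among them removal of the length and GC trends (0.60, adjusted p 0.0138), library size as the only scaling (0.53, 0.0285) and the omission of 0 h replicate 3 (0.58, 0.0348). Leaving out 0 h replicate 2 moved the difference to 0.26 (adjusted p 0.273). The call over all times (adjusted p 0.0485) was as close to the threshold. It was lost with 6 h and 24 h replicates 2 and 3 averaged (0.0941) and with DESeq2 (0.0783). Leaving out any 24 h library (replicate 1 0.155, replicate 2 0.0537, replicate 3 0.161) or any 12 h library (0.0596 to 0.0623) ended it, as did leaving out 1 h replicate 2 (0.111), 3 h replicate 2 (0.0668) or 3 (0.0623), or 6 h replicate 2 (0.0647).

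Part of the TNFSF13 spread lies opposite to that of the readthrough entry. In the 0 h replicate 2, TNFSF13 took 12.9% and the readthrough entry 14.1% of the counts of the locus, while in 0 h replicates 1 and 3 the shares were 19.9% and 20.7% for TNFSF13 and 5.28% and 5.67% for the readthrough entry. Over all libraries the readthrough share ran from 0.462% (24 h replicate 1) to 15.8% (3 h replicate 3). The TNFSF12 share stayed between 63.9% and 75.6%. With the 3 entries summed, the log2 difference of 24 h from 0 h was -0.0079 (SE 0.0936, adjusted p 0.956). The summed level was 24.7 ± 0.399 CPM at 0 h and 24.6 ± 1.67 CPM at 24 h (n = 3 each). The higher TNFSF13 level at 24 h was thus not seen in this sum, most of which is TNFSF12.

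**Figure D4:**
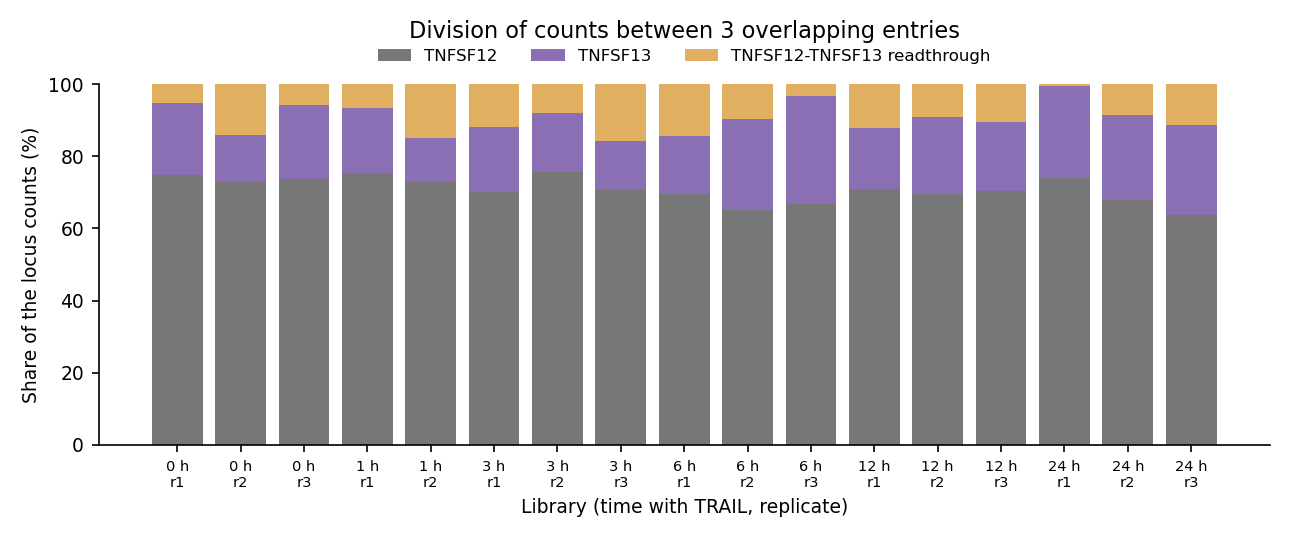
Share in percent of the summed counts of TNFSF12, TNFSF13 and the overlapping readthrough entry (y axis, 0 to 100) in each of the 17 libraries (x axis, r is the replicate). The readthrough share moves from 0.462% to 15.8% between libraries, including replicates of 1 time.

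Of the 15 receptors that bind these ligands, 13 were tested. Relative to 0 h, 0 were called at 1 h (1 at an unadjusted p below 0.05, 0 with DESeq2 or limma-voom). At 3 h, 3 were higher and 2 lower (17.7% of all genes were called); in all, 3 were called once 0 h replicate 1, 3 h replicate 2 or the filter was left out. At 6 h, 4 were higher and 1 lower (30.1% of all genes); leaving out 0 h replicate 1 gave 3 calls and leaving out 6 h replicate 3 gave 2. At 12 h, 1 was higher and 1 lower (12.4%); leaving out 0 h replicate 1 or 12 h replicate 2 gave 0 calls, library size only gave 4 and removal of the length and GC trends 5. At 24 h, 7 were higher and 3 lower (35.1%), with a median log2 fold change of 0.14. The shares of the 13 called at 6 h and 12 h were near those of all genes. TNFRSF1A and TNFRSF1B, the receptors of TNF and of the LTA trimer, were lower at 3 h (-0.45, adjusted p 1.1e-05, and -0.42, 0.00385), the time at which TNF had its highest counts, and higher by 24 h (0.14, adjusted p 0.0404, and 0.49, 2.5e-04). TNFRSF10A, the gene of the TRAIL receptor DR4, exceeded its 0 h level on the log2 scale by 0.26 at 3 h (adjusted p 0.0187), by 0.54 at 6 h (3.0e-05) and by 0.40 at 24 h (4.3e-04). TNFRSF10B, the gene of DR5, did so by 0.20 at 3 h (adjusted p 0.0203), by 0.41 at 6 h (4.3e-05) and by 0.49 at 24 h (6.7e-06). The decoy receptor gene TNFRSF10D exceeded its own 0 h level by 0.32 at 6 h (adjusted p 0.00535) and by 0.64 at 24 h (1.1e-05). Another decoy gene, TNFRSF10C, named after its values were seen, did so by 1.42 at 24 h (SE 0.425, adjusted p 0.0129). TNFRSF11B, whose product also binds TRAIL, was likewise named after its values were seen. It was lower at 24 h than at 0 h (-0.57, SE 0.166, adjusted p 0.0117).

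TNFRSF9, which encodes the receptor of 4-1BB ligand, moved the other way from TNFSF9. Its mean was 1.58 ± 0.561 CPM at 0 h, 2.697 ± 0.463 CPM by 6 h, 2.81 ± 0.534 CPM by 12 h and 5.04 ± 0.658 CPM by 24 h (n = 3 throughout), on 16 to 91 counts per library. On the log2 scale TNFRSF9 was higher by 0.78 (adjusted p 0.0191), 0.84 (0.0233) and 1.67 (SE 0.222, 2.5e-05) at these later times, when TNFSF9 was at -0.43, -0.72 and -0.97. TNFRSF12A, which encodes Fn14, the receptor of TWEAK, had a mean of 308 ± 21.1 CPM at 0 h, 444 ± 46.9 CPM by 3 h and 184 ± 15.9 CPM by 24 h (n = 3 throughout). It was higher at 3 h (0.53, adjusted p 0.00213) and lower at 12 h (-0.41, 0.0143) and 24 h (-0.75, 6.4e-05), while TNFSF12 was called only at 6 h. The ligand and receptor of a pair were measured in the same libraries and against the same 0 h libraries.

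**Figure D5:**
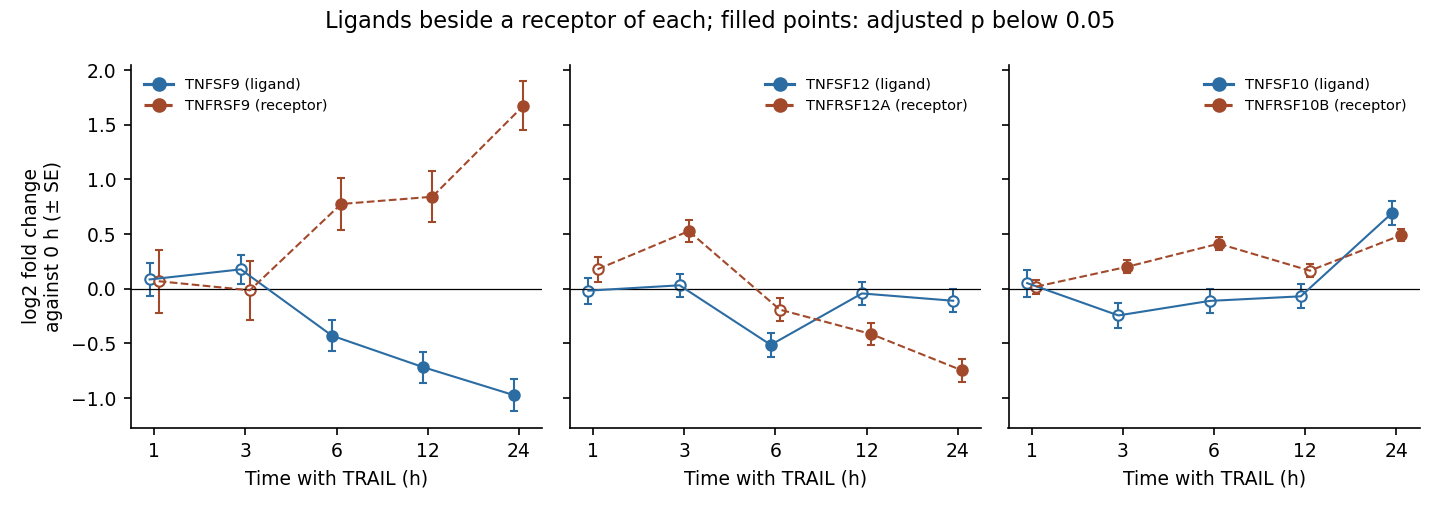
Log2 fold change against 0 h (y axis) with its standard error for 3 ligands (solid, blue) and a receptor gene of each (dashed, red) at 1 to 24 h (x axis, not to scale); filled points have an adjusted p below 0.05. TNFRSF9 rises to 1.67 at 24 h while TNFSF9 falls to -0.97.

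Of the 10 proteases, protease cofactors and mRNA decay factors that act on ligands of this family or their mRNA, all were tested. At 1 h 0 were called (1 at an unadjusted p below 0.05, 0 with DESeq2 or limma-voom), and at 6 h 5 were higher and 0 lower (30.1% of all genes were called). At 3 h 1 was higher and 1 lower, near the share of all genes (17.7%); leaving out 0 h replicate 2 or 3, or 3 h replicate 1 or 2, left 1 call. At 12 h 2 were higher and 1 lower (12.4%); leaving out 0 h replicate 1 left 1 call. At 24 h 4 were higher and 2 lower (35.1%); leaving out 0 h replicate 1, or averaging 24 h replicates 2 and 3, left 3 calls. ADAM17, the protease that releases TNF from the cell surface, was higher at 6 h (0.50, SE 0.136, adjusted p 0.0114) and 24 h (0.63, SE 0.136, adjusted p 0.00197). ZFP36L1, which promotes decay of AU-rich mRNAs such as that of TNF, was higher at 3 h (0.55, adjusted p 1.1e-05) and at 6 h (0.54, 1.3e-05), and ZFP36, which acts in the same way, at 6 h (0.56, 3.9e-05).

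Of the 9 other ligands of the family, 3 were tested (TNFSF4, TNFSF18 and EDA), and CD40LG and TNFSF11 had 0 counts in all 17 libraries. At 6 h, 1 of the 3 was lower (13.2% of all genes were), and at 24 h 1 of the 3 was higher (18%). At 1, 3 and 12 h 0 were called, except that leaving out 3 h replicate 1 gave 1 call at 3 h. The gene of OX40 ligand, TNFSF4, had a mean of 1.04 ± 0.0714 CPM at 0 h and of 0.426 ± 0.107 CPM at 6 h (n = 3 each, 5 to 8 counts per library at 6 h), a difference of -1.27 on the log2 scale (SE 0.359, adjusted p 0.0114). The call at 24 h was TNFSF18, which encodes GITR ligand (1.33, adjusted p 0.0233, 7 to 18 counts per library). Leaving out 0 h replicate 1 or 2, or 24 h replicate 1 or 2, ended it, as did DESeq2, a filter on the mean count and a fit of only the 2 groups. Both genes average below the level set for naming and were chosen after their values were seen.

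As a description, the genes whose log2 CPM followed each ligand most closely over the 17 libraries were found among the more abundant genes (average log2 CPM 2 or more). For TNF they were PLAU (Pearson r = 0.979), CXCL8 (0.932) and RRAD (0.929), and for LTB AC092338.1 (0.889), SERTAD3 (0.872) and CSRNP2 (0.871). The genes closest to TNFSF10 were MAL2 (0.930), HERC5 (0.922) and ZBED6CL (0.919), of which HERC5 is an interferon-induced ligase for ISG15. For TNFSF15 they were LMO7 (0.925), TRIM38 (0.924) and OSBPL2 (0.923), and for TNFSF9 DIPK1B (0.964), MEGF6 (0.963) and DPP7 (0.955). For TNFSF12 they were IFITM1 (0.952), RARRES2 (0.928) and TCEAL9 (0.923), while TNFSF13 had no gene above 0.807 (STBD1). Among the ligands themselves, TNF and LTB had r = 0.826 and TNFSF9 and TNFSF15 had r = -0.922. The points share their libraries and time course, and for TNF they rest on at most 9 counts.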

How the data were processed

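The authors deposited 1 table of gene-level expected counts, named for RSEM in the file name, not scaled to depth or length, of which 10.8% were not whole. The submitters' processing notes name cutadapt 1.18, STAR 2.7.0f and hg38. The annotation release and the strand setting are not given in the sources used here. Columns were matched to libraries by the labels' descriptions, with 0 columns left over. Counts were rounded, filtered by filterByExpr (minimum count 10, smallest group 2), scaled by TMM and fitted in edgeR 4.0.16 (R 4.3.3) with 1 robust quasi-likelihood model of the 6 times over 17 libraries. All adjusted p-values are Benjamini-Hochberg values of this two-sided test over 15365 genes unless another tool is named. Each SE is the fitted coefficient, without the prior count that the log2 fold change carries, over the root of its F. Alternatives used DESeq2 1.42.0, limma 3.58.1 (voom), other scalings and filters, offsets for length and GC trends, a replicate block, and each library left out. The script was tested on simulated data. Positions are from GENCODE 29 and promoters from RefSeq (GRCh38.p14). The ligands, lists and tests were chosen with earlier results of these data known. All 9 ligands are named. From each related list, the 3 called genes with the largest change at a time are named where their average log2 CPM is at least 0, and not all of these are printed.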

Additional observations from a re-analysis of the deposited data

How the results depend on the processing

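Of the called changes of single ligands, 290 values under other settings and 112 with a library left out stayed called in the same direction, 7 and 14 were no longer called, and 0 changed direction. This tally leaves out every setting in which the gene was filtered or got no adjusted p, so it says least about TNF. The 3 h rise of TNF over 0 h had a value in 15 settings, while the 24 h rise of TNFSF10 had one in 20. The count at 24 h against 0 h was 5 with library size only and 5 after removal of the length and GC trends, with or without the replicate block, because LTB and TNFSF13 were added. The removal of these trends, with or without the block, gave 2 ligands from 6 h to 12 h, TNFSF9 being added. At 3 h against 0 h, 1 ligand (LTB) was called with a mean count of at least 10, with only the 2 groups fitted and with DESeq2, since TNF was then filtered or had no adjusted p. DESeq2 called 3 of the 6 ligands it gave an adjusted p at 6 h, 2 of 5 at 12 h, and 0 of 5 from 1 h to 3 h. From 1 h to 3 h the count was also 1 with a mean count of at least 10 and with only the 2 groups fitted. From 12 h to 24 h it was 1 with near-identical replicates averaged. The share of all genes called was worked out for the main fit only, so none stands beside the counts under other settings. With 1 library left out, the counts ran from 1 to 2 at 3 h, from 0 to 2 between 1 h and 3 h, and from 1 to 4 between 12 h and 24 h. Among comparisons with an unadjusted p of 0.05 or more, the sign changed in 33 values with a library left out and 21 under other settings. No pairing by replicate number was seen. Deviations of same-numbered libraries from their time means correlated by a median of 0.0108 (40 pairs, 8 of them over 0.1). For libraries of different number the median was -0.0086 (80 pairs, 14 of them over 0.1). Each mean is of 2 or 3 libraries only, so these values cannot exclude a pairing. With the replicate block 7 ligands were tested, TNFSF13 was called at 24 h (0.46, adjusted p 0.0479) and not over all times (0.0503), and no other ligand's call changed. Depth limits TNF, LTA and FASLG most.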
